A study of Mus musculus with 4 samples.

Results

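Heat shock proteins are molecular chaperones, and the transcripts of 10 of them were examined in NIH/3T3 cells after knockdown of *Setd2*: *Hspa1a*, *Hspa1b*, *Hspa8*, *Hsph1*, *Dnajb1*, *Hspb1*, *Hsp90aa1*, *Hsp90ab1*, *Hspd1* and *Hspe1*. Every row of the transcript table that carries one of these symbols was taken, which gave 15 transcripts of 9 genes among 34200 transcripts of 21945 genes. No row carries *Hspb1*, the small heat shock protein of the set, so its transcript was not analysed here and it enters only with its promoter sequence. NIH/3T3 is an immortalised line of mouse fibroblasts. The knockdown (KD) cells received a pair of *Setd2* siRNAs and the control cells, which the labels call wild type (WT), received a non-targeting Scrambled siRNA, in both cases by lipid transfection at 10 nM, so every group had been transfected. RNA was taken after 48 h, polyadenylated RNA was sequenced from 2 KD and 2 WT libraries, and no library came from cells without siRNA or from heat-treated cells. Knockdown is partial, so KD cells still made *Setd2* mRNA.

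Heat shock proteins bind unfolded proteins and help them fold, keep them soluble or pass them on for degradation. HSP70 proteins work in cycles of ATP hydrolysis that J-domain proteins start and nucleotide exchange factors reset, HSP90 receives partly folded clients such as kinases and steroid receptors from HSP70, and HSP60 with its lid HSP10 forms a folding chamber in mitochondria. Some members are made in all cells at all times, while others are induced when the transcription factor HSF1 binds heat shock elements, which are inverted repeats of GAA, in promoters. SETD2 deposits H3K36me3 along the bodies of transcribed genes.

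The deposited values used are the mean over the 4 libraries and the KD minus WT difference of group means, both on a log scale. A level below is the group mean rebuilt from these and back-transformed to normalised estimated counts, and no value of a single library entered the analysis. Whether single libraries of KD and WT overlapped was therefore not examined, and each difference is given with its standard error (SE), which rests on the spread of 2 libraries within each group. *Setd2* itself (ENSMUST00000153838.7, GRCm38 chr9:110532597-110618633) was at 923 in KD and 3680 in WT, a log2 difference of -1.99 ± 0.08 (SE, 2 against 2 libraries; adjusted p = 0.0144, limma). All 12 fibroblast markers were tested, with summed levels of 1260370 in KD and 1404990 in WT, and 8 of 13 markers of epithelial, endothelial, blood, muscle and neuronal cells were tested, with summed levels of 652 in KD and 537 in WT. Of the fibroblast markers, 8 were lower in KD, such as *Col1a2* at 215502 in KD and 346235 in WT, and 4 were higher, such as *Fn1* at 388093 in KD and 276425 in WT. Their part in the values of the chaperones was not tested.

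Promoter windows of 250 bases before and 50 bases after the annotated start were found in RefSeq (GRCm38.p6) for 7 of the 10 genes, and no window was used for *Hspa8*, *Hsp90aa1* or *Hsp90ab1*. They are shown because *Hspa1a* and *Hspa1b* lie side by side on chromosome 17, 9951 bases apart, with starts that are nearly the same in sequence, because *Hspd1* and *Hspe1* are read in opposite directions from a shared stretch on chromosome 1, and because *Hsph1* carries a full match beside its start. The 2-unit heat shock element was searched as GAANNTTC or TTCNNGAA and the 3-unit element as GAANNTTCNNGAA or TTCNNGAANNTTC, in which each 3-unit match also holds 2-unit matches. The 3-unit patterns are the same element read from either strand, while each 2-unit pattern reads the same on both strands. Capitals mark the matched bases.
Hspa1a, chr17:34972107-34972406, minus strand: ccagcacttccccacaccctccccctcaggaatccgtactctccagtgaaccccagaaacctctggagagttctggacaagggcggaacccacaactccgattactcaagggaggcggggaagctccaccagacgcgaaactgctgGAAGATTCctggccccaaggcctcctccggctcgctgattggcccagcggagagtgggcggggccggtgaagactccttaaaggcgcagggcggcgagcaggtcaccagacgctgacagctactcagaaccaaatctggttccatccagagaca
Hspa1b, chr17:34959189-34959488, minus strand: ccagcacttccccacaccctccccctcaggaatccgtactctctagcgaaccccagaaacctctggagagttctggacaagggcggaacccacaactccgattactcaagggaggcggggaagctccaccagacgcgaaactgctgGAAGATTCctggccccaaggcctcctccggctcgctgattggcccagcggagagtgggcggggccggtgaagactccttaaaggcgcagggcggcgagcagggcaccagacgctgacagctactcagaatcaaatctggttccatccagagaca
Hspe1, chr1:55087898-55088197, plus strand: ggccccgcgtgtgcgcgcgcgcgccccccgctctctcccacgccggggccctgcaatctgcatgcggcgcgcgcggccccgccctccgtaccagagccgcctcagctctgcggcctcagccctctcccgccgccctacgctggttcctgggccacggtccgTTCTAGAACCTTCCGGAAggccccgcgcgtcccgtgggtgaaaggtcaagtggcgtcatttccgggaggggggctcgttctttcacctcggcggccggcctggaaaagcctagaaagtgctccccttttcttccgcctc
Hsph1, chr5:149636266-149636565, minus strand: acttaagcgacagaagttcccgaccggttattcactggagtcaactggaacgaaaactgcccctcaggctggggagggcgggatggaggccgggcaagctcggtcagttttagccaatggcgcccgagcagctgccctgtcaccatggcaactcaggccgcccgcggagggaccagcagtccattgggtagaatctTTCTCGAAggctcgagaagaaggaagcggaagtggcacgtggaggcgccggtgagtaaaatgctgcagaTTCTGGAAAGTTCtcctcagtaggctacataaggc

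The windows of *Hspa1a* and *Hspa1b* differed at 4 of 300 bases, and each held the 2-unit match GAAGATTC 104 bases before the start. In the window of *Hspe1* a run of 18 bases, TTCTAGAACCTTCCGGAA, began 89 bases before the start and held both forms of the 3-unit element. This run, at chr1:55088059-55088076, lies within the 107 bases that separate the starts of the tested *Hspd1* and *Hspe1* transcripts, and is also the match in the window of *Hspd1*. In *Hsph1* the 3-unit match TTCTGGAAAGTTC began 15 bases after the start and the 2-unit match TTCTCGAA began 54 bases before it. The 7 genes have 10 windows, of which some overlap. The 3-unit element was found in 4 of the 10 windows, where 0.603% of all 32851 RefSeq windows hold it, and the 2-unit element in 7 of the 10, where 15.1% of all windows hold it. By gene this was 3 and 6 of the 7, with *Hspb1* among the latter. *Dnajb1* had no match in its windows, and a second window of *Hspd1* (chr1:55088194-55088493) had none. The search allowed no mismatch in a unit and only 2 bases between units, so elements of another form were not looked for. A match describes the letters in the window and was not measured as a binding site.

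The chaperones differed widely in level. Since longer transcripts yield more reads, genes were compared in normalised estimated counts per kilobase of transcript length, summed over the tested transcripts. The full annotated length was used with no allowance for fragment length, which bears most on *Hspe1-201*, the shortest transcript of the set at 774 bases. *Hsp90ab1*, the constitutive cytosolic HSP90, was at 88713 per kilobase in KD and 67884 in WT, the highest when the genes are taken without their pseudogenes. *Hspe1*, the HSP10 lid of the mitochondrial chaperonin, followed with 51183 in KD and 41870 in WT, and *Hspa8*, the constitutive HSP70 (HSC70), with 44866 in KD and 40296 in WT. *Hsp90aa1*, the inducible cytosolic HSP90, was at 28735 in KD and 24640 in WT, close to *Hspd1*, the HSP60 subunit, at 26168 in KD and 24320 in WT. *Hsph1*, an HSP110 that acts as an exchange factor of HSP70, was at 7978 in KD and 7274 in WT. *Dnajb1*, the J-domain partner HSP40, was at 1098 in KD and 984 in WT. The stress-inducible HSP70 genes were lowest, *Hspa1b* at 421 in KD and 426 in WT and *Hspa1a* at 59.1 in KD and 55.2 in WT.

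In this order 2 pairs of neighbours were closer than 2 combined SDs of a library on the log2 scale. *Hspe1* exceeded *Hspa8* by 1.09-fold per kilobase and *Hsp90aa1* exceeded *Hspd1* by 1.06-fold, while the other 6 steps ranged from 1.6-fold (*Hspa8* over *Hsp90aa1*) to 7.42-fold (*Hspa1b* over *Hspa1a*). Per kilobase, *Hspa8* was 107-fold above *Hspa1b* in KD and 94.5-fold above it in WT. The place of *Hspa8* depends on a processed pseudogene, *Gm15459*, that shares most of its sequence. Summed with it, *Hspa8* would be at 87779 per kilobase in KD and 80819 in WT, above *Hspe1* in both groups and above *Hsp90ab1* in WT, and 209-fold and 190-fold above *Hspa1b*. All 15 transcripts together made up 0.795% of the summed level of the table in KD and 0.700% in WT, and *Hsp90ab1* alone gave 41.5% of the members' sum in KD and 38.1% in WT.

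**Figure D1:**
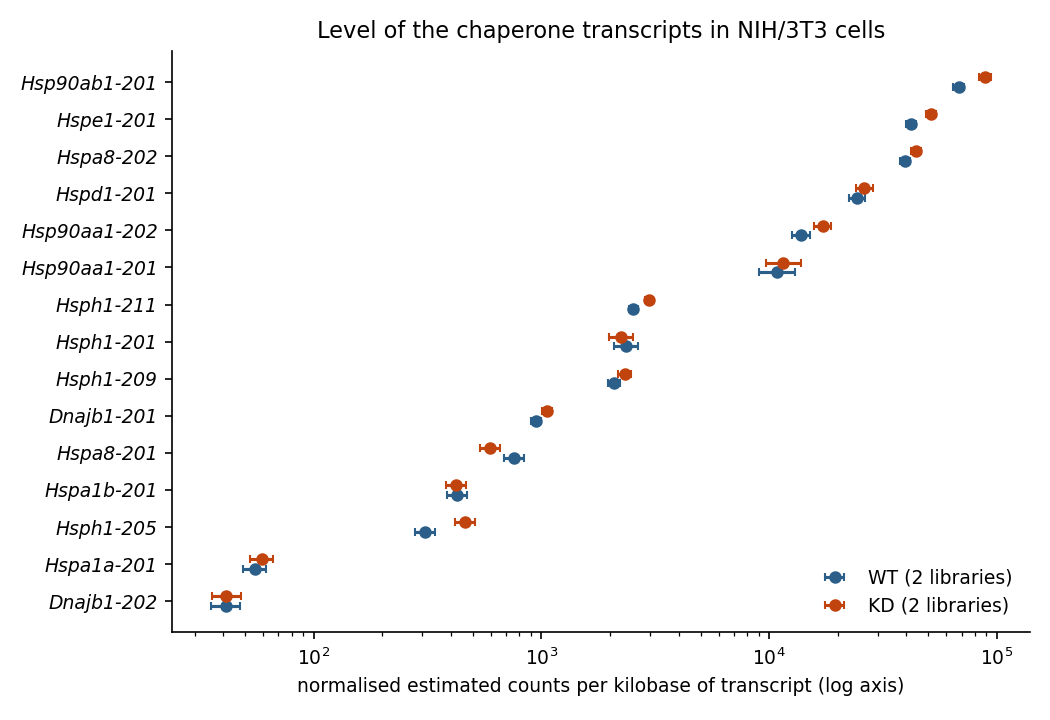
Level of the 15 chaperone transcripts in WT (blue) and KD (red), as normalised estimated counts per kilobase of transcript on a log axis. Points are back-transformed means of 2 libraries and bars span 1 moderated SD of a library. The transcripts run from about 41.1 (*Dnajb1-202*, WT) to 88713 per kilobase (*Hsp90ab1-201*, KD), and in most of them the KD and WT points lie close together.

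The main question was whether the chaperone transcripts differed between KD and WT. None of the 15 passed an adjusted p of 0.05 in limma's moderated test, against 5.44% of all transcripts called higher and 4.24% called lower in KD. An unadjusted p under 0.05 was reached by 4 of them (26.7%, against 28.2% of all transcripts), namely *Hsp90ab1-201*, *Hspe1-201*, *Hsph1-205* and *Hsph1-211*. A Wald test from the deposited standard errors called 3 of these 4, *Hsp90ab1-201*, *Hspe1-201* and *Hsph1-211*, higher in KD, against 10.4% of all transcripts. The median log2 difference of the 15 was 0.15, against -0.01 for all transcripts, and 12 of the 15 had a value above 0, against 49.2% of all transcripts. This balance depends on the scaling, since *Actb* itself was 0.46 higher in KD on the log2 scale and relative to it the median of the 15 was -0.30, with only *Hsph1-205* above 0. All 15 confidence intervals of 95% stayed within 1 log2 unit of 0 in either direction, which held for 17037 of the 34200 transcripts. Most abundant transcripts share this. Of those with a mean of at least 1000 it held for 8280 of 9010, and for all 13 members among them.

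**Figure D2:**
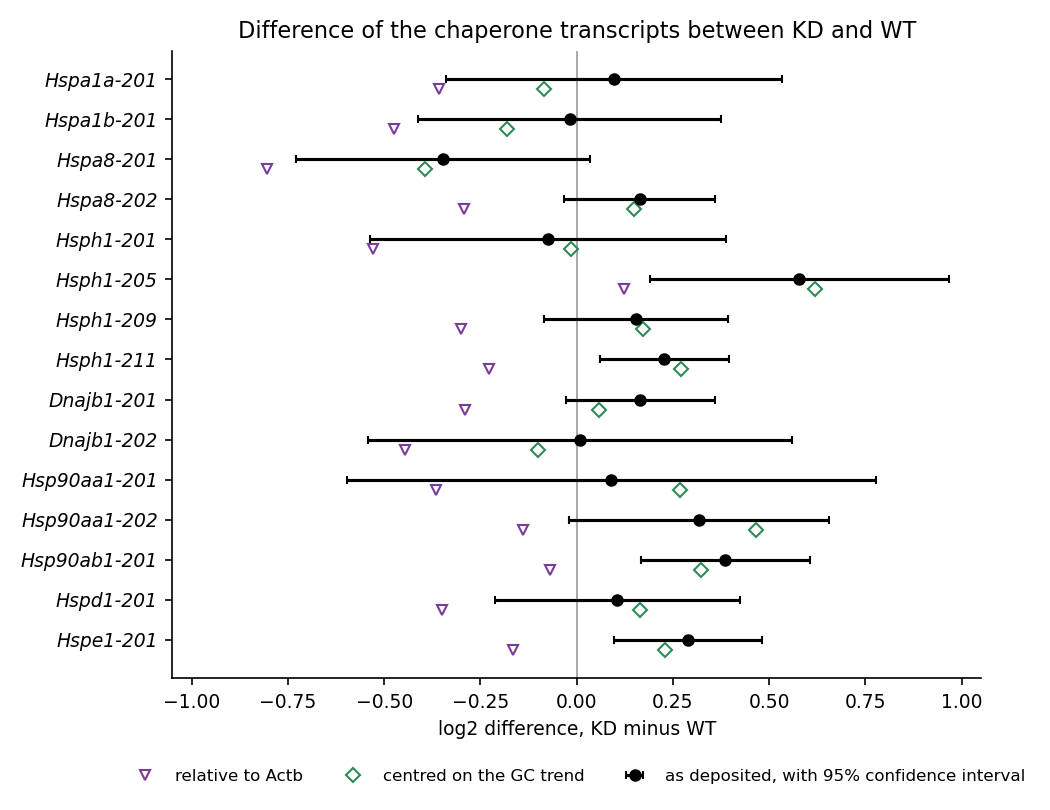
Log2 difference, KD minus WT, of each chaperone transcript. Black points with bars are the differences as deposited with 95% confidence intervals from limma's moderated SE (2 against 2 libraries), purple triangles are the differences relative to *Actb*, and green diamonds are those centred on the GC content trend. Every interval stays between -1 and 1, and the triangles lie 0.46 to the left of the points.

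Of the HSP90 pair, *Hsp90ab1-201* (ENSMUST00000024739.13, chr17:45567775-45573271) was at 223557 in KD and 171068 in WT. It is the most abundant of the 15 transcripts and ranks 24 of all. The log2 difference was 0.39 ± 0.08 (SE), or 30.7% with an interval from 12.2% to 52.2%, and it missed the threshold (adjusted p = 0.0591, limma), while the Wald test passed it (adjusted p = 0.0177). *Hsp90aa1* was measured as 2 transcripts with the same coding sequence of 2199 bases, which differ in their ends. *Hsp90aa1-202* (ENSMUST00000094361.10, chr12:110690605-110696395) was at 56364 in KD and 45228 in WT, a log2 difference of 0.32 ± 0.13 (adjusted p = 0.197). *Hsp90aa1-201* (ENSMUST00000021698.12) was at 32958 in KD and 30958 in WT, a log2 difference of 0.09 ± 0.26 (adjusted p = 0.861), and had the widest interval of the 15, from -0.60 to 0.78. Per kilobase *Hsp90ab1* was 3.09-fold above *Hsp90aa1* in KD and 2.76-fold above it in WT. The coding sequences of this pair are identical at 76.2% of aligned bases.

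The constitutive HSP70 gene *Hspa8* was almost entirely represented by *Hspa8-202* (ENSMUST00000117557.7, chr9:40801302-40805200), at 89387 in KD and 79833 in WT, a log2 difference of 0.16 ± 0.07 (adjusted p = 0.240, limma). *Hspa8-201* (ENSMUST00000015800.15), which starts 318 bases upstream and has 57 more coding bases, was at 1420 in KD and 1808 in WT. Its log2 difference of -0.35 ± 0.15 was the lowest of the 15 (adjusted p = 0.206). The transcripts thus had values on opposite sides of 0, and the difference between them was not tested. Of the 31-base stretches of *Hspa8-202*, 10.9% occur in no other gene, and 85.6% occur in the processed pseudogene *Gm15459*. The table lists *Gm15459* at 83295 in KD and 78655 in WT, about the level of *Hspa8-202* itself, so how reads were divided between the gene and its copy bears on both levels. Summed with *Gm15459*, the level of *Hspa8* had a log2 difference of 0.12, against 0.15 for the gene alone.

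The stress-inducible HSP70 genes were low in both groups only relative to the other chaperones. Among all 34200 transcripts *Hspa1b* ranks 8182 and *Hspa1a* 16760 by mean level. *Hspa1b* (ENSMUST00000172753.1, chr17:34956436-34959238) was at 1180 in KD and 1195 in WT, a log2 difference of -0.02 ± 0.15 with an interval from -0.41 to 0.38 (adjusted p = 0.955, limma). *Hspa1a* (ENSMUST00000087328.3, chr17:34969190-34972156) was at 175 in KD and 164 in WT, a log2 difference of 0.10 ± 0.17 with an interval from -0.34 to 0.53 (adjusted p = 0.749). The intervals leave room for a rise of up to 29.8% of *Hspa1b* and 44.8% of *Hspa1a*. Both are single-exon genes whose coding sequences differ at 8 of 1923 aligned bases, and 63.8% of the 31-base stretches of *Hspa1a* are shared with *Hspa1b*. Summed, they were at 1355 in KD and 1359 in WT. With windows that differ at 4 bases around the start, as printed above, *Hspa1b* was 7.13-fold above *Hspa1a* per kilobase in KD and 7.73-fold above it in WT. This split is uncertain, since the reads can be told apart only in the 34.6% of *Hspa1a* and the 32.0% of *Hspa1b* that occur in no other gene.

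*Hsph1*, the HSP110 gene, was measured as 4 transcripts whose 31-base stretches occur in no other gene. *Hsph1-211* (ENSMUST00000202361.3, chr5:149616544-149636338) was the most abundant, at 11278 in KD and 9633 in WT, a log2 difference of 0.23 ± 0.06 (adjusted p = 0.0983, limma; 0.0452 in the Wald test). *Hsph1-201* was at 7230 in KD and 7611 in WT, a log2 difference of -0.07 ± 0.18. *Hsph1-209* was at 7080 in KD and 6360 in WT, a log2 difference of 0.15 ± 0.09. The least abundant of the 4, *Hsph1-205* (ENSMUST00000201452.3, chr5:149614287-149636171), was at 1451 in KD and 971 in WT, which is the largest log2 difference of the 15, 0.58 ± 0.15, with an interval from 0.19 to 0.97 (adjusted p = 0.0815). It passed the threshold when only transcripts with a mean of at least 100 counts were fitted (adjusted p = 0.0383). *Hsph1-205* encodes the same 858 residues as *Hsph1-211* and ends 2257 bases further downstream, and the uncertainty of its read assignment, an SD of 0.23 on the log2 scale, exceeded the SD of 0.19 between libraries. *Hsph1-201* and *Hsph1-209* encode 814 and 817 residues.

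*Dnajb1*, whose J domain stimulates the ATPase of HSP70, was represented by *Dnajb1-201* (ENSMUST00000005620.9, chr8:83608193-83612653) at 3167 in KD and 2825 in WT. Its log2 difference was 0.17 ± 0.07 with an interval from -0.03 to 0.36 (adjusted p = 0.229, limma). *Dnajb1-202*, which lacks 300 of the coding bases, was at 118 in KD and 117 in WT, a log2 difference of 0.009 ± 0.21. Of the 31-base stretches of *Dnajb1*, 98.9% are its own.

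The subunits of the mitochondrial chaperonin are encoded head to head on chromosome 1 around the run of heat shock elements shown above. *Hspe1-201* (ENSMUST00000075242.6, chr1:55088132-55091307) was at 39615 in KD and 32407 in WT, a log2 difference of 0.29 ± 0.07, or 22.2% with an interval from 6.98% to 39.7% (adjusted p = 0.0799, limma; 0.00575 in the Wald test). *Hspd1-201* (ENSMUST00000027123.14, chr1:55077835-55088024) was at 63406 in KD and 58927 in WT, a log2 difference of 0.11 ± 0.12 with an interval from -0.21 to 0.42 (adjusted p = 0.621). The intervals of the pair overlap, and the difference between them was not tested. Per kilobase of full length, *Hspe1* (774 bases) was 1.96-fold above *Hspd1* (2423 bases) in KD and 1.72-fold above it in WT. Of the 31-base stretches 44.2% are found only in *Hspd1* and 51.9% only in *Hspe1*, and the pseudogene *Hspd1-ps3*, which shares 51.8% of those of *Hspd1*, was listed at 38.7 in KD and 40.8 in WT.

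In 4 genes the tested transcripts could be set against each other. *Hsph1-211* made up 41.7% of the summed level of its gene in KD and 39.2% in WT, *Hsph1-201* 26.7% and 30.97%, *Hsph1-209* 26.2% and 25.9%, and *Hsph1-205* 5.37% and 3.95%. *Hsp90aa1-202* held 63.1% of its gene in KD and 59.4% in WT. *Hspa8-202* held 98.4% and 97.8%, and *Dnajb1-201* held 96.4% and 96.0%. Per kilobase, *Hsph1-209* was above *Hsph1-201* in KD (2318 against 2232) and below it in WT (2083 against 2349). Their read assignment SDs were 0.076 and 0.10 on the log2 scale. Only 0.9% of the 31-base stretches of each of these transcripts occur in no other transcript. For *Hspa8-202* this was 1.4%, and the highest share in the 4 genes was 15.7% (*Hsp90aa1-202*). The shares and this order thus depend on how reads were divided among transcripts, and they were not tested.

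**Figure D3:**
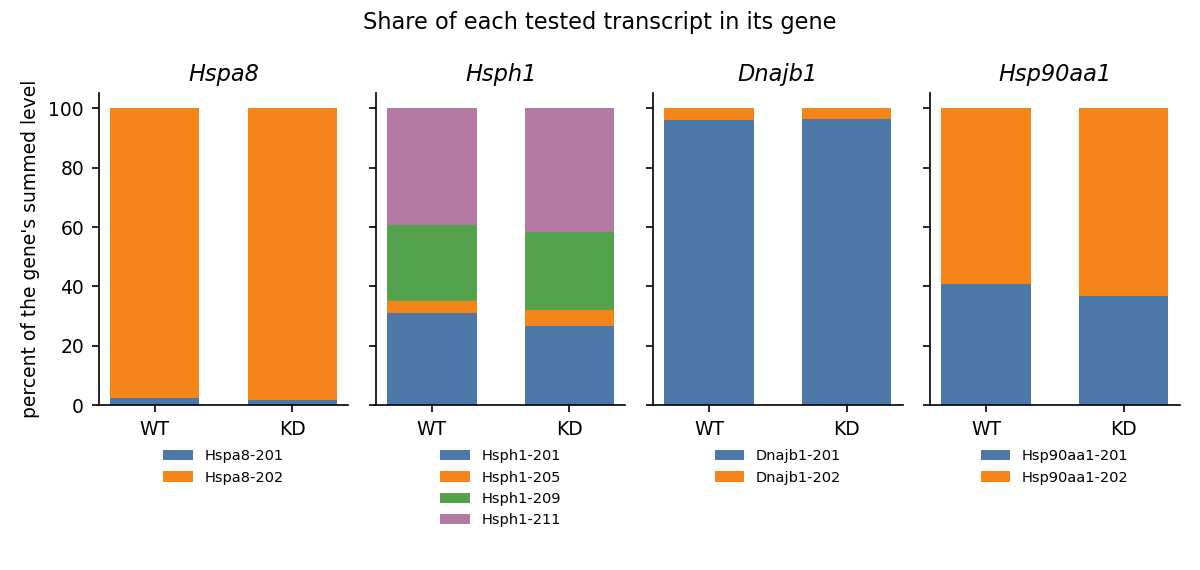
Share of each tested transcript in the summed level of its gene, in percent, for the 4 genes with more than 1 tested transcript, in WT and KD. Bars are back-transformed means of 2 libraries, and the largest shift is that of *Hsph1-201*, from 30.97% in WT to 26.7% in KD.

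The members are abundant, and abundant transcripts were called more often. Of the 15, 13 had a mean of at least 1000 counts (this limit was set with the values known). Among all 9010 transcripts above it, 13.7% were called higher and 7.08% lower in KD. Of these 9010, 48.7% had an unadjusted p under 0.05, and their median log2 difference was 0.10. Among the 13 members 0 were called, 4 (30.8%) had an unadjusted p under 0.05 and the median was 0.16. Several of the 13 are transcripts of the same gene, and whether they differ from other transcripts at this level was not tested.

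**Figure D4:**
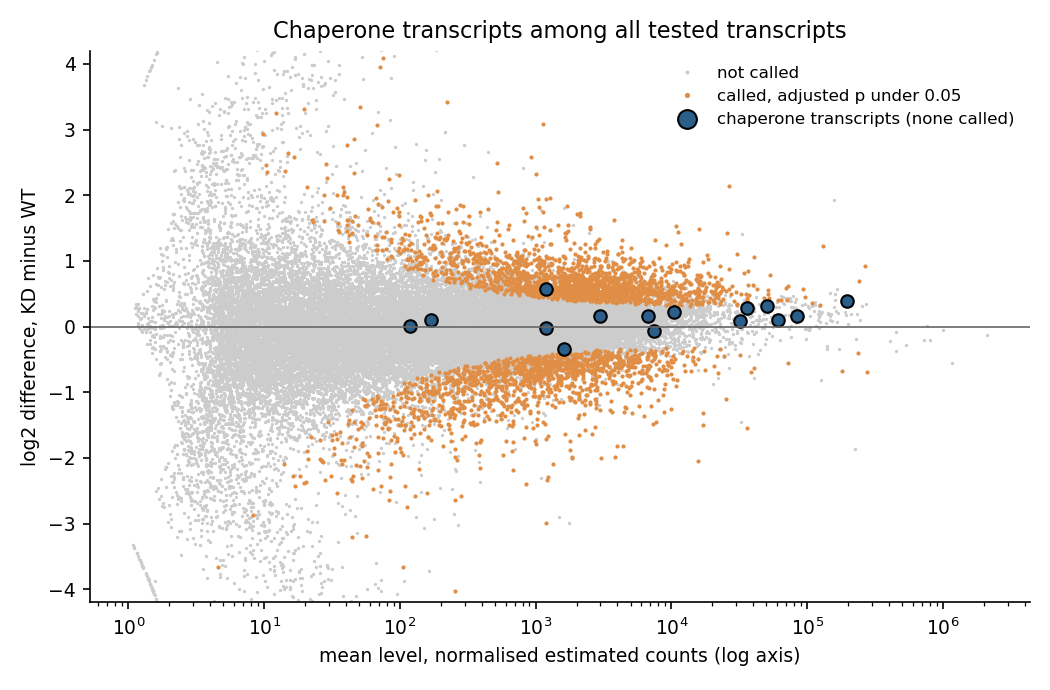
Log2 difference, KD minus WT, against the mean level in normalised estimated counts (log axis) for all tested transcripts, with called transcripts in orange, all others in grey and the 15 chaperone transcripts as blue circles. A total of 309 transcripts lie beyond the vertical range. As scaled in the deposited data, 10 of the 13 chaperone transcripts with a mean of at least 1000 lie above 0. Of all transcripts at that level 61.1% do. Relative to *Actb*, only *Hsph1-205* of the 13 does.

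The genes that work with these chaperones were taken from 6 lists of 81 genes, of which 77 had a tested transcript. At least 1 transcript was called higher in KD for 14 genes (18.2%) and lower for 6 genes (7.79%), where 7.47% of all genes had a transcript called higher and 5.93% a transcript called lower, and 57 genes had no called transcript. The partner transcripts are abundant too, and of the 78 with a mean of at least 1000, 11 (14.1%) were called higher and 2 (2.56%) lower, where 13.7% and 7.08% of all transcripts at that level were called. The median log2 difference of the 150 transcripts was 0.15, close to the median of the members. Relative to *Actb* the counts were 3 genes higher and 35 lower, and centred on the GC content trend they were 9 and 3. Of the 19 called transcripts given by value below, all 19 lost the call in limma without a trend of the variance on the mean. That setting called 51 transcripts higher and 76 lower in all. Relative to *Actb*, whose own difference was taken as free of error, 10 of the 19 lost the call. Centred on the GC content trend, which has no value for *Hspa12a* and *Stip1*, 7 did.

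Among the heat shock factors, *Hsf1*, the main activator of the heat shock response, was higher in KD. Its most abundant transcript (ENSMUST00000227478.1) was at 3491 in KD and 2074 in WT, a log2 difference of 0.75 ± 0.13 (adjusted p = 0.0370, limma), and a second transcript (ENSMUST00000072838.5) was at 474 in KD and 196 in WT (log2 difference 1.27, adjusted p = 0.0345), although the latter did not pass the Wald test (adjusted p = 0.451). The other three tested *Hsf1* transcripts were not called, and the summed level of the gene had a log2 difference of 0.68. Centred on the GC content trend, the most abundant transcript had a log2 difference of 0.55 and missed the threshold (adjusted p = 0.0770), as it did relative to *Actb* (0.29, adjusted p = 0.145). No other gene of the 6 in this list was called.

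Of 20 genes of the HSP90 family and its cochaperones, 5 were called higher and 0 lower in KD. *Fkbp4*, the immunophilin FKBP52 of steroid receptor complexes, was at 14515 in KD and 9406 in WT (log2 difference 0.63 ± 0.06, adjusted p = 0.0190, limma; 0.17 relative to *Actb*, adjusted p = 0.0970). A transcript of *Pih1d1*, a subunit of the R2TP complex, was at 939 and 594 (0.66 ± 0.10). A minor transcript of *Chordc1*, an HSP90-binding protein, was at 584 and 387 (0.59 ± 0.11) and made up 10.6% of its gene in WT. The main *Chordc1* transcript (ENSMUST00000001825.8), at 4208 in KD and 3255 in WT (0.37 ± 0.12), was not called (adjusted p = 0.140, limma). *Nudc* and *Ppid* were the other genes called higher. Relative to *Actb*, *Pih1d1* (0.20, adjusted p = 0.202) and *Chordc1* (0.13, adjusted p = 0.413) also lost the call, *Pih1d1* lost it on GC centring (adjusted p = 0.0675) and *Chordc1* on median centring (adjusted p = 0.0574). Of 13 exchange and adaptor factors of HSP70, 3 (23.1%) were called higher and 1 (7.69%) lower, beside the same shares of all genes. *Hspbp1*, an exchange factor, was at 2251 in KD and 1368 in WT (0.72 ± 0.08, adjusted p = 0.0201). The most abundant transcript of *St13*, the HSP70-interacting protein HIP, was at 22077 and 14471 (0.61 ± 0.09). *Stip1*, the adaptor HOP that links HSP70 with HSP90, was at 14961 and 11057 (0.44 ± 0.06, and -0.020 relative to *Actb*). Relative to *Actb*, *Hspbp1* (0.26, adjusted p = 0.0642) and *St13* (0.15, adjusted p = 0.245) lost the call. The call on the lower side was a minor transcript of *Bag1* (ENSMUST00000191273.6), which is listed at 0 in KD and at 34.1 in WT and makes up 0.792% of the level of its gene in WT.

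The other lists had calls in both directions. Of 21 tested J-domain genes, 3 (14.3%) were called higher and 2 (9.52%) lower, beside 7.47% and 5.93% of all genes. The most abundant transcript of *Dnaja3*, a mitochondrial J-domain protein, was at 4190 in KD and 2922 in WT (log2 difference 0.52 ± 0.07). A transcript of *Dnajb2* was at 978 and 602 (0.70 ± 0.11). A minor transcript of *Dnajc8*, which is known as a spliceosome-associated protein, was at 313 and 17.9 (4.09 ± 0.65) and did not pass the Wald test (adjusted p = 0.227), with a read assignment SD of 2.20 on the log2 scale. *Dnajb4* was lower, at 2628 in KD and 4513 in WT (-0.78 ± 0.09), as was a transcript of *Dnajb5*, at 61.6 and 185 (-1.58 ± 0.21). Relative to *Actb*, *Dnaja3* (0.064, adjusted p = 0.509) and *Dnajb2* (0.24, adjusted p = 0.154) lost the call, and on GC centring *Dnajb2* (adjusted p = 0.0734) and *Dnajb4* (adjusted p = 0.0660) did. Of 11 genes of the HSP70 and HSP110 family outside the members, *Hyou1*, which acts in the endoplasmic reticulum, had a transcript called higher. This was at 5336 and 3892 (0.46 ± 0.07, and -0.00060 relative to *Actb*), a call that GC centring also ended (adjusted p = 0.0548). Its other tested transcripts, at 1937 and 2214 (-0.19) and at 2019 and 1841 (0.13), were not called. The summed level of *Hyou1* had a log2 difference of 0.23. A transcript of *Hspa2* was called lower at 237 and 457 (-0.95 ± 0.17), while the other tested one (ENSMUST00000080449.6) was at 141 and 81.5 (0.78, adjusted p = 0.0546). *Hspa12a* was called lower at 468 and 776 (-0.73 ± 0.14). Of 6 tested small HSP genes, a transcript of *Cryab*, the alpha-B crystallin, was called higher at 4261 and 1493 (1.51 ± 0.24). Another *Cryab* transcript of like mean level (ENSMUST00000034562.8) was at 2192 in KD and 2352 in WT (-0.10, adjusted p = 0.611, limma). The summed level of *Cryab* had a log2 difference of 0.71. A transcript of *Hspb11*, known as an intraflagellar transport protein, was called lower at 1212 and 1795 (-0.57 ± 0.09), a call that GC centring ended (adjusted p = 0.0813).

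**Figure D5:**
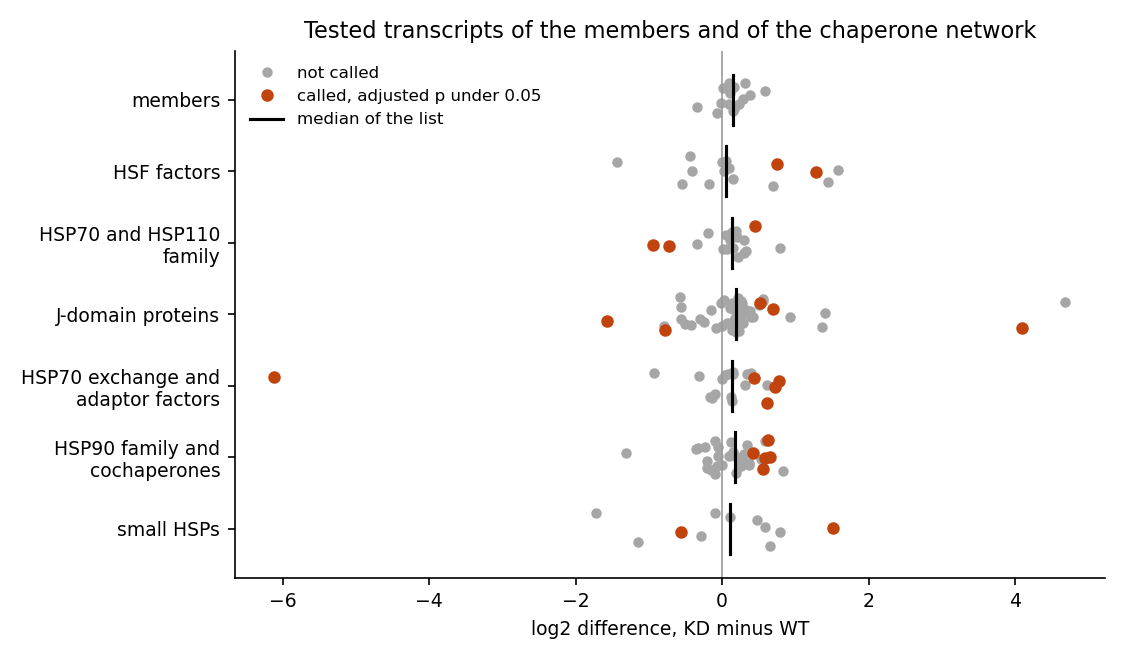
Log2 difference, KD minus WT, of every tested transcript of the members and of the 6 lists, with called transcripts in red, the others in grey and the median of each list as a black bar. Points are spread vertically within a list only for visibility. The members hold 0 called transcripts and lie between -0.35 and 0.58, and the point at -6.11 is the *Bag1* transcript that is listed at 0 in KD.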

How the data were processed

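Polyadenylated RNA of 2 KD and 2 WT libraries was compared, grouped by the condition in their labels. The authors removed adapters with BBDuk, estimated counts with Kallisto and compared the groups in Sleuth. The submitters' processing notes also name bcl2fastq 2.17, HISAT2 and GRCm38. The deposited means and group differences are natural log values, for which the authors had divided the estimated counts by size factors and added 0.5. The index and the filter on low counts are not given in the sources used here. The deposited table also holds variances over the 4 libraries and of the read assignment. The p-values, q-values and statistics of the authors' own tests, and a second table of gene p-values, were not used. The depth of single libraries is unknown, so no counting interval is given.

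Differences were divided by the natural log of 2, and a fold change on this log2(value + 0.5) scale understates low transcripts. The residual variance, with 2 degrees of freedom, was rebuilt from the deposited variance and moderated in limma 3.58.1 (R 4.3.3) with a trend on the mean, to 4.67 degrees of freedom in all. Benjamini-Hochberg adjustment ran over 34200 transcripts at a threshold of 0.05, and the fit was tested on simulated data. The sign was taken such that *Setd2* is lower in KD, so *Setd2* does not check the labels independently. The design text speaks of 3 transfections but the labels tie no library to one, so p-values measure the spread between these libraries only. A level is exp(mean ± difference / 2) - 0.5.

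Positions and sequences came from GENCODE M21 (GRCm38), matched for 98.6% of transcripts by identifier, and promoters from RefSeq. Stretches of 31 bases were compared with all annotated transcripts. The members and lists were chosen with earlier results of these data known. All tested member transcripts are named, and of each list up to 3 called genes with the largest rise and 3 with the largest fall, by the transcript with the highest mean, with *Hsf1* and *Setd2*. *Nudc*, *Ppid*, *Actb* and the markers given by value were named after values were seen. Alternatives were a Wald test from the deposited standard errors, limma without the trend, a mean of at least 100 counts, centring on the median or on GC content in 50 classes, and values relative to *Actb*. Both centrings and the values relative to *Actb* shifted the differences and kept each SE, so the error of the shift did not enter. The alternatives for *Setd2* and the sums with pseudogenes were chosen after seeing the data.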

Additional observations from a re-analysis of the deposited data

How the results depend on the processing

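No paired analysis was possible because no values of single libraries entered the analysis, and for the same reason no library could be left out. Of the members, 0 transcripts were called in either direction by limma. The Wald test called 3 higher, and limma on transcripts with a mean of at least 100 called 1 higher, while the values relative to *Actb* called 3 lower. The *Actb* difference was taken there as a constant, so its own uncertainty is not in any call relative to *Actb*. limma without a trend, centring on the median and centring on GC content called 0 higher and 0 lower, with 2, 5 and 6 transcripts at an unadjusted p under 0.05. The median log2 difference of the members, 0.15, became -0.30 relative to *Actb*. Relative to *Actb* the log2 differences turned to -0.36 (*Hspa1a-201*), -0.29 (*Hspa8-202*), -0.30 (*Hsph1-209*), -0.23 (*Hsph1-211*), -0.29 (*Dnajb1-201*), -0.45 (*Dnajb1-202*), -0.37 (*Hsp90aa1-201*), -0.14 (*Hsp90aa1-202*), -0.070 (*Hsp90ab1-201*), -0.35 (*Hspd1-201*), -0.17 (*Hspe1-201*), -0.43 (*Hsf1* ENSMUST00000226872.1), -0.00060 (*Hyou1*) and -0.020 (*Stip1*), by the construction of subtracting 0.46. Centring on GC content turned *Hspa1a-201* to -0.086, *Dnajb1-202* to -0.10 and the same *Hsf1* transcript to -0.16, and centring on the median turned the latter pair to -0.039 and -0.019. *Setd2* kept its log2 difference of -1.99 in limma without a trend, where its adjusted p was 0.0537. For the partner genes, 14 higher and 6 lower in limma, the counts were 25 and 11 in the Wald test, 0 and 0 in limma without a trend (31 of 77 genes at an unadjusted p under 0.05), 22 and 7 at a mean of at least 100, 12 and 7 after centring on the median, 3 and 35 relative to *Actb*, and 9 and 3 after centring on GC content. The cause of these shifts other than by *Actb* was not tested. Over all transcripts, 1861 were higher and 1451 lower in limma, against 3566 and 2667 in the Wald test, 51 and 76 without a trend, 2926 and 2039 at a mean of at least 100, 1476 and 1692 after centring on the median, 1053 and 940 after centring on GC content, and 530 and 9298 relative to *Actb*.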
